A study of Mus musculus with 2 samples.

Results

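The genes described here are 10 feedback inhibitors and antagonists of Wnt signalling, Axin2, Nkd1, Notum, Rnf43, Znrf3, Apcdd1, Dkk2, Dkk3, Wif1 and Sp5. They were chosen by name, and each had a row in both libraries, so that they make up 10 of 28000 features. Prostate tumour tissue of mice was measured by droplet single-cell RNA-seq in 1 library per genotype, and cells with over 200 and under 7000 genes and under 15% mitochondrial counts were used. DoubleTg mice (hHGFtg-hMETtg-PBCre, labelled as adenocarcinoma) carried a human HGF transgene expressed throughout the body and a human MET transgene at the H11 locus, kept silent by a stop cassette until Cre from the probasin promoter removes it in prostate epithelium. TripleTg mice (hHGFtg-hMETtg-Ctnnb1-PBCre, labelled as carcinoma) carried the same transgenes and Cre, and in addition the Ctnnb1 L(Ex3) allele on 1 chromosome, from which Cre removes an exon so that a stabilised β-catenin protein is made. Both genotypes were on a mixed background of C57BL/6 and C3H SCID. The labels used here give neither the age at collection nor the number of mice behind a library. The comparison between the genotypes asks which of the 10 genes differed in each kind of epithelial cell when β-catenin was stabilised, and the comparison of classes within a library asks which of them came from stroma.

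In canonical Wnt signalling, a Wnt ligand binds a Frizzled receptor and an Lrp co-receptor at the cell surface, a cytoplasmic complex that marks β-catenin for destruction is switched off, and β-catenin enters the nucleus and activates genes together with Tcf and Lef factors. Many of the genes activated in this way encode inhibitors that act back on the pathway at each of these levels, and Axin2 is the reporter most often used for it. In the prostate and seminal vesicle, as in other organs that form by budding, Wnt antagonists are also made by the mesenchyme around the epithelium, so that a gene of this kind can be read in stroma without any change in epithelium.

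Promoter sequence is shown for Axin2, Dkk2 and Sp5, since their luminal levels differed in 3 ways between the genotypes (higher from a low level, higher from almost none, and lower) and their windows end at the base before the annotated gene. RefSeq promoter entries on GRCm38.p6 were examined for 6 of the 10 genes (Axin2, Nkd1, Rnf43, Dkk2, Wif1 and Sp5), with 7 entries. No window of Notum, Znrf3, Apcdd1 or Dkk3 was examined, which does not show that RefSeq lacks an entry for them. Each line gives the 250 bases before the start, 5′ to 3′ on the strand of the gene, and capitals mark matches on either strand to the Tcf and Lef core motif, searched as CTTTGAT (held by 3.21% of all promoter windows), as CTTTGAA (4.46%), as CTTTGTT (5.03%) and as CTTTGTA (3.2%). The windows lie at chr11:108920099-108920348 for Axin2, chr3:132085042-132085291 for Dkk2 and chr2:70474673-70474922 for Sp5, all on the plus strand.
Axin2: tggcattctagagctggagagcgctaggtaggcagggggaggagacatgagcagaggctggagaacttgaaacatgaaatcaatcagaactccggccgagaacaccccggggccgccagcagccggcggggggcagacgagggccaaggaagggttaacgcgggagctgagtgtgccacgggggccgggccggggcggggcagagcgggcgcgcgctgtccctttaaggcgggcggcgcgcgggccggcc
Dkk2: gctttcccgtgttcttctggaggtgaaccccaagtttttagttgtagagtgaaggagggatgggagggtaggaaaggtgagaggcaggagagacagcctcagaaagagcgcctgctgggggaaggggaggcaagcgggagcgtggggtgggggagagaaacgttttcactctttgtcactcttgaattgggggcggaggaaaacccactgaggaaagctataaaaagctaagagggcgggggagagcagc
Sp5: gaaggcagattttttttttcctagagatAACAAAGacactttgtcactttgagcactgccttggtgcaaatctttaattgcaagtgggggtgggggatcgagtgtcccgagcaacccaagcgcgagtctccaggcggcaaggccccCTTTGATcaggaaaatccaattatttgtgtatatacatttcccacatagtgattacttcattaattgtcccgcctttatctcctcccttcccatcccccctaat
Of the 7 entries, 1 held matches, that of Sp5, with 2 that did not overlap, CTTTGTT on the opposite strand 222 to 216 bases before the start and CTTTGAT on the gene's strand 104 to 98 bases before it. Among all 32851 promoters, 14.8% held at least 1 of the 4 motifs in a window of this length. G and C made up 69.2% of the Axin2 window, 55.6% of the Dkk2 window and 46% of the Sp5 window. A match describes the letters of the window only, and a window without one says nothing on binding elsewhere.

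The DoubleTg library kept 10598 of 12072 cells with 256880958 UMIs (unique molecular identifiers, each standing for a captured RNA molecule), and the TripleTg library 9492 of 9492 cells with 229655259 UMIs. The TripleTg matrix already held only cells within these limits, so the kept shares do not compare the quality of the libraries. Of the kept barcodes, 29 were found in both libraries. Cells fell into classes named from marker lists, by clusters made without the 10 genes and without the other Wnt genes listed. Levels (CPM) are the UMI sum of a gene divided by the total of its class and multiplied by 1000000, with a 95% exact Poisson interval, and differences between groups are log2 ratios of CPM with a 95% exact conditional interval. All intervals cover counting error only: with 1 library per genotype there is no replicate, no test and no p-value, and the genotype cannot be told apart from the mouse, the dissection or the run. Ctnnb1 stood at 312 CPM in DoubleTg and 238 CPM in TripleTg luminal-like cells, which does not check the genotype, since counts from the 3′ end do not show whether the exon was removed. hMETtg stood at 494 CPM in DoubleTg and 26.1 CPM in TripleTg luminal-like cells, at 28.6 and 33.3 CPM in basal-like cells and at 112 and 130 CPM in seminal vesicle-like cells.

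In luminal-like cells (4977 DoubleTg and 4938 TripleTg cells), 8 of the 10 inhibitors were at least 2-fold higher in TripleTg, 1 was at least 2-fold lower and 1 was neither. Among all 11975 genes measured well enough in these cells, 14.5% were at least 2-fold higher and 14.5% at least 2-fold lower. The median log2 ratio of the 10 genes was 5.80, beside -0.02 over all genes measured. The 8 higher genes included secreted antagonists, membrane proteins and a part of the destruction complex, and the lower gene was the transcription factor Sp5. Of the markers of other cells, the 7 fibroblast markers summed to 34.19 CPM in DoubleTg and 165 CPM in TripleTg luminal-like cells and the 9 seminal vesicle markers to 94.36 and 1364 CPM, and the part of RNA from such cells in the inhibitor levels was not tested.

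**Figure D1:**
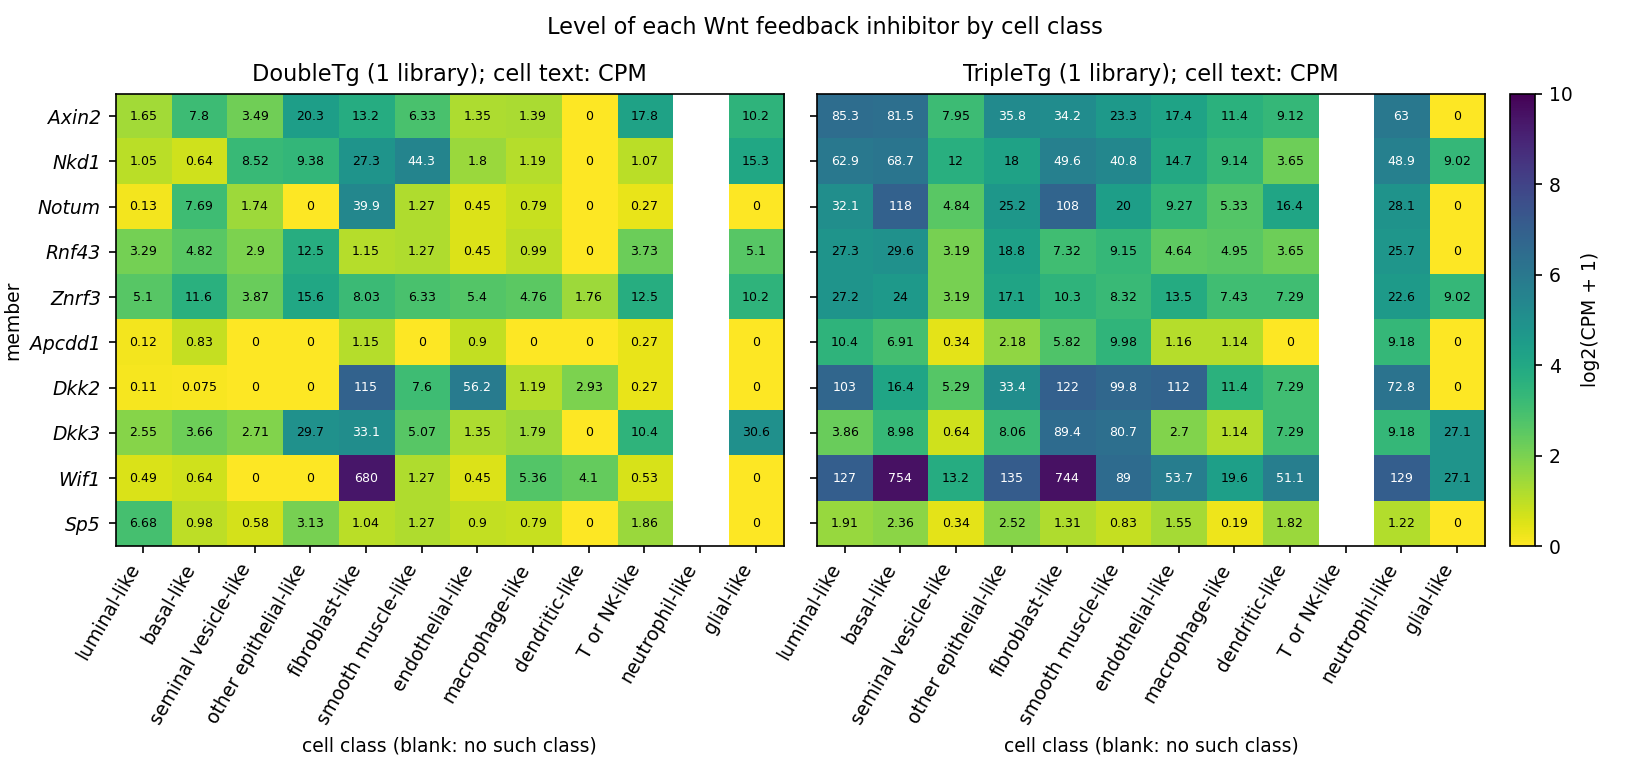
Heat maps of the level of each of the 10 genes (rows) in each cell class (columns) of the DoubleTg and TripleTg libraries, with the CPM printed in each cell and the colour giving log2(CPM + 1). Axin2 reads 1.65 CPM in DoubleTg and 85.3 CPM in TripleTg luminal-like cells, Wif1 reads 680 CPM in DoubleTg fibroblast-like cells, and Sp5 is the gene whose luminal-like level is lower in TripleTg (1.91 against 6.68 CPM).

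Axin2 (ENSMUSG00000000142, chr11:108920349-108950783 on GRCm38), the scaffold that rebuilds the destruction complex, stood at 1.65 CPM (1.48 to 1.84) in DoubleTg and 85.3 CPM (83.8 to 86.8) in TripleTg luminal-like cells. The log2 ratio was 5.69 (5.53 to 5.85), a 51.7-fold difference. Its paralog Axin1, a constitutive part of the same complex, stood at 31.3 and 30.5 CPM, a log2 ratio of -0.03 (-0.09 to 0.02). Nkd1 (ENSMUSG00000031661, chr8:88521354-88594884), which binds Dishevelled and restrains it, stood at 1.05 CPM in DoubleTg and 62.9 CPM in TripleTg. The log2 ratio was 5.91 (5.71 to 6.12). A UMI of Axin2 was seen in 5.18% of DoubleTg and 69.7% of TripleTg luminal-like cells, and in 1% (0.739 to 1.33) and 29.6% (28.3 to 30.9) after each cell was thinned to 5000 UMIs. As a reference for free RNA, the thinned share of macrophage-like cells with an Axin2 UMI was 0.637% in DoubleTg and 5.34% in TripleTg, with median depths of 8529 and 10042 UMIs beside 35533 and 25355 UMIs in luminal-like cells. Among the 52 TripleTg neutrophil-like cells deep enough to be thinned, the share was 26.9% (15.6 to 41). The part of free RNA in the luminal-like shares was not tested.

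The inhibitors at the cell membrane were also higher in TripleTg luminal-like cells. Rnf43 (ENSMUSG00000034177, chr11:87662722-87735539) and Znrf3 (ENSMUSG00000041961, chr11:5276324-5444847) encode related transmembrane ubiquitin ligases that clear Frizzled receptors from the surface and are themselves cleared by R-spondin bound to an Lgr receptor. Rnf43 stood at 3.29 CPM in DoubleTg and 27.3 CPM in TripleTg, a log2 ratio of 3.05 (2.93 to 3.17). Znrf3 stood at 5.1 and 27.2 CPM, a log2 ratio of 2.42 (2.32 to 2.52). These were the smallest ratios among the 8 higher genes, and the DoubleTg level of Rnf43 was above its macrophage-like level of 0.992 CPM (0.322 to 2.31), while that of Znrf3 lay within its macrophage-like interval (4.76 CPM, 3.05 to 7.08). Apcdd1 (ENSMUSG00000071847, chr18:62922231-62961179), a membrane glycoprotein that binds Wnt and Lrp5, stood at 0.117 CPM on 23 UMIs in DoubleTg and 10.4 CPM on 1531 UMIs in TripleTg, a log2 ratio of 6.47 (5.88 to 7.13).

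The secreted antagonists showed the widest differences, and also the single gene that did not reach 2-fold. Notum (ENSMUSG00000042988, chr11:120653788-120661175), the extracellular esterase that strips the lipid from Wnt proteins, stood at 0.132 CPM in DoubleTg and 32.1 CPM in TripleTg luminal-like cells, a log2 ratio of 7.92 (7.37 to 8.54). Wif1 (ENSMUSG00000020218, chr10:121033960-121100650), which binds Wnt proteins directly, stood at 0.488 and 127 CPM, a log2 ratio of 8.02 (7.74 to 8.33). Dkk2 (ENSMUSG00000028031, chr3:132085292-132180304), a Dickkopf protein that binds the Lrp co-receptors, stood at 0.112 CPM on 22 UMIs and 103 CPM on 15234 UMIs, a log2 ratio of 9.85 (9.25 to 10.52) or 922-fold. A Dkk2 UMI was seen in 0.382% of DoubleTg and 69% of TripleTg luminal-like cells. After thinning these shares were 0.104% and 33.1%, beside 0.318% and 2.67% in macrophage-like cells and 32.7% (20.3 to 47.1) in 52 TripleTg neutrophil-like cells. Dkk3 (ENSMUSG00000030772, chr7:112116017-112159057), the most divergent Dickkopf protein, stood at 2.55 and 3.86 CPM, and its log2 ratio of 0.60 (0.42 to 0.78) stayed under the 2-fold limit although its interval lay above 0.

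Sp5 (ENSMUSG00000075304, chr2:70474923-70477729), a zinc finger transcription factor known as a Wnt target in other tissues, differed in the opposite direction. It stood at 6.68 CPM (6.32 to 7.05) in DoubleTg and 1.91 CPM (1.69 to 2.14) in TripleTg luminal-like cells, a log2 ratio of -1.81 (-2 to -1.62). In DoubleTg, luminal-like cells held 93.9% of all Sp5 UMIs while holding 76.6% of all UMIs. The DoubleTg level was uneven among the 10 luminal-like clusters. Sp5 stood at 15.9 CPM in the cluster led by Alb, Tff3 and Krt4, at 13.6 CPM in the cluster led by the mitotic genes Ube2c and Mki67, at 12.4 CPM in the cluster led by Msmb and at 11.5 CPM in the cluster led by Spink5 and Cxcl17. In 5 other clusters it stood between 0.988 and 2.48 CPM, and in the last at 6.91 CPM. The 8 TripleTg luminal-like clusters ranged from 0.579 to 3.59 CPM, so that they overlapped the low DoubleTg clusters and lay under the high ones.

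**Figure D2:**
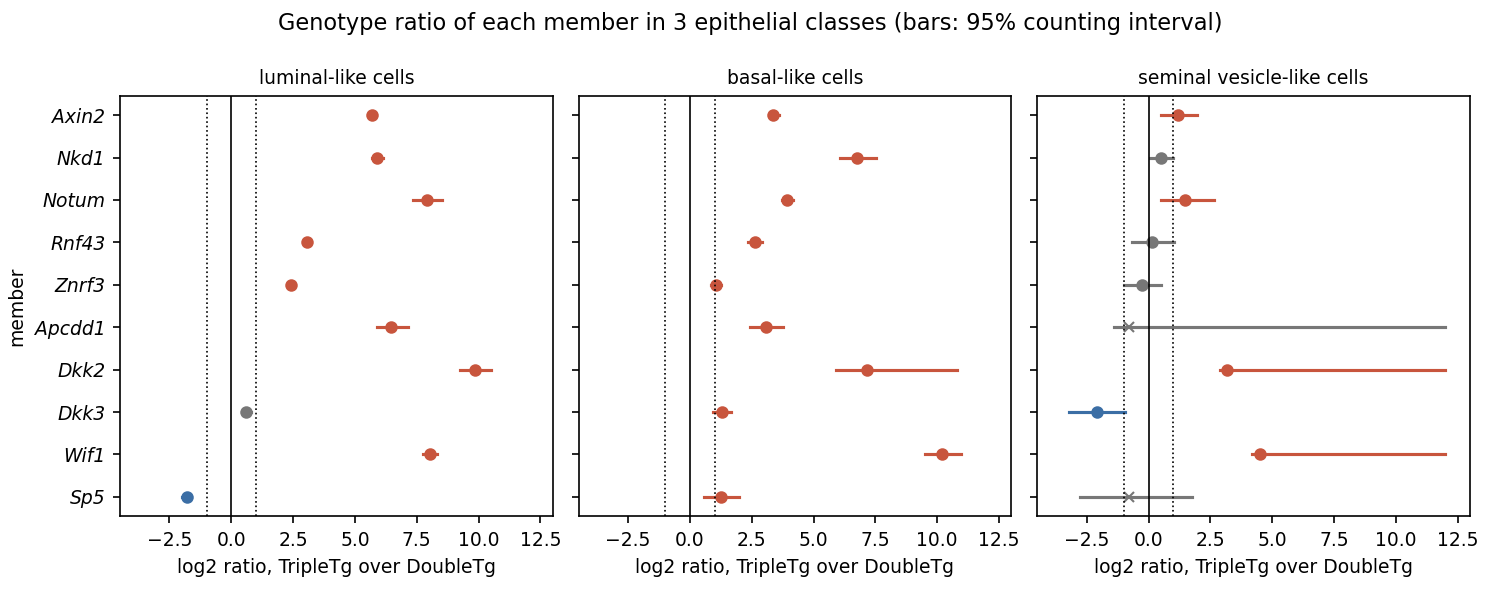
Log2 ratio of TripleTg over DoubleTg for each of the 10 genes in 3 epithelial classes, with 95% counting intervals, dotted lines at 2-fold, red for higher, blue for lower, grey for neither and a cross for genes too low to compare. Sums under 3 UMIs are drawn at 3, intervals without an upper bound run to the right end, Sp5 lies to the left of the dotted lines in luminal-like cells (-1.81), and most other luminal-like and basal-like points lie far to the right.

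In basal-like cells (1893 DoubleTg and 945 TripleTg cells) all 10 inhibitors were at least 2-fold higher in TripleTg, beside 18.8% of the 12186 genes measured there that were at least 2-fold higher and 15.4% that were at least 2-fold lower. Their median log2 ratio was 3.22, beside -0.04 over all genes. The widest difference was that of Wif1, from 0.641 CPM on 17 UMIs to 754 CPM on 18885 UMIs, a log2 ratio of 10.20 (9.52 to 10.98). Wif1 was thus seen after thinning in 0.229% of DoubleTg and 63% of TripleTg basal-like cells, beside 4.13% of TripleTg macrophage-like and 34.6% (22 to 49.1) of neutrophil-like cells. Dkk2, at 103 CPM in TripleTg luminal-like cells, stood at 16.4 CPM in TripleTg basal-like cells, on 411 UMIs against 2 UMIs in DoubleTg (log2 ratio 7.77, 5.9 to 10.82). Its TripleTg interval there, 14.9 to 18.1 CPM, lay just above the macrophage-like level of 11.4 CPM (8.72 to 14.7) and far under the neutrophil-like level of 72.8 CPM, and the part of free RNA in it was not tested.

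The intracellular pair differed between genotypes in basal-like cells by unlike amounts. Axin2 stood at 7.8 CPM (6.78 to 8.94) in DoubleTg basal-like cells and at 81.5 CPM in TripleTg, a log2 ratio of 3.38 (3.18 to 3.6). Nkd1 went from 0.641 to 68.7 CPM, a log2 ratio of 6.74 (6.06 to 7.53). Notum stood at 7.69 CPM (6.67 to 8.82) in DoubleTg basal-like cells, where luminal-like cells had 0.132 CPM, and at 118 CPM in TripleTg, a log2 ratio of 3.94 (3.74 to 4.15). Axin2, Notum, Rnf43 and Znrf3 were thus above their DoubleTg macrophage-like levels (1.39, 0.793, 0.992 and 4.76 CPM) in basal-like cells without stabilised β-catenin. Rnf43 went from 4.82 to 29.6 CPM (log2 ratio 2.62, 2.35 to 2.9), and Apcdd1 from 0.829 to 6.91 CPM (3.06, 2.41 to 3.77).

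The remaining basal ratios lay near the 2-fold limit. Znrf3 stood at 11.6 and 24 CPM (log2 ratio 1.05, 0.84 to 1.25), Dkk3 at 3.66 and 8.98 CPM (1.30, 0.95 to 1.66) and Sp5 at 0.98 and 2.36 CPM on 26 and 59 UMIs (1.27, 0.58 to 1.99). The Znrf3 ratio was 0.96 at a clustering resolution of 0.5 and 0.83 in hMETtg-positive cells, and the Sp5 ratio was 0.94 when the Wnt genes were used for clustering and 0.41 in hMETtg-positive cells, all under the limit. An hMETtg UMI was seen in 15.7% of DoubleTg basal-like and 16.4% of macrophage-like cells, and in 38.2% and 2.77% in TripleTg. Positive DoubleTg basal-like cells are thus not shown to express the transgene. The basal-like classes themselves differed, since the 8 basal markers summed to 16599.3 CPM in DoubleTg and 6972 CPM in TripleTg. The fibroblast markers summed to 1273 and 237.1 CPM and the seminal vesicle markers to 140.6 and 2958 CPM in the same classes. The part of these differences in the ratios was not tested.

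TripleTg basal-like cells were divided. The cluster of 300 cells led by Mt4, Igfbp2, Ptn and Lgals7, with hair and cornification genes such as Krt42 and Sprr1b among its leading genes, had a higher level of each of the 10 inhibitors than the cluster of 622 cells led by Ifi202b, Ivl and Il33. Wif1 stood at 1453.6 CPM (1427.3 to 1480.2) in the former and 426 CPM (416 to 436) in the latter. Nkd1 stood at 171 and 19.9 CPM, Notum at 214 and 73.9 CPM and Axin2 at 136 and 56.1 CPM. For Apcdd1 the levels were 17.9 and 1.79 CPM and for Sp5 6.36 and 0.495 CPM, so that 51 of the 59 basal Sp5 UMIs of TripleTg came from the 300 cells. In the 622 cells the Sp5 level was thus not above the 0.98 CPM of DoubleTg basal-like cells. Znrf3 stood at 46.1 CPM in the 300 and 13.3 CPM in the 622 cells, the latter within 2-fold of the 11.6 CPM of DoubleTg basal-like cells. The levels were closest for Dkk2, at 19.4 CPM (16.5 to 22.7) and 15.6 CPM (13.7 to 17.6), with overlapping intervals. The third cluster of the class, 23 cells led by Krt75 and mitotic genes, held 0 UMIs of Apcdd1 and of Sp5, on 858921 UMIs.

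**Figure D3:**
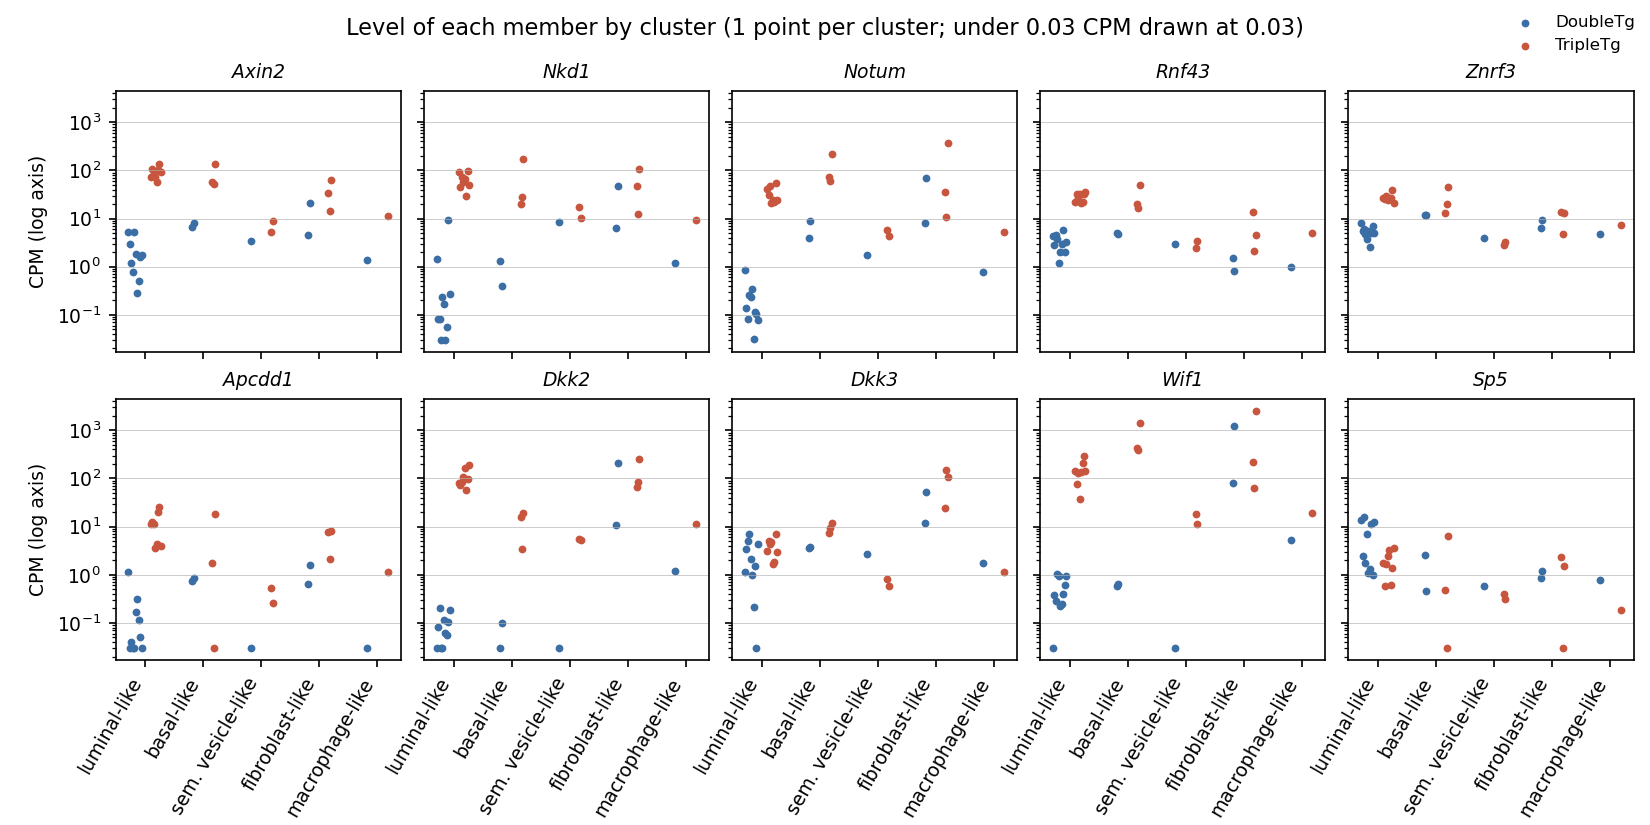
Level of each of the 10 genes (CPM, log axis, values under 0.03 drawn at 0.03) by cluster, grouped by class with macrophage-like cells last, and with 1 point per cluster (blue DoubleTg, red TripleTg). For 8 of the genes every TripleTg luminal-like point lies above every DoubleTg luminal-like point (for Axin2, 58.5 CPM at the lowest against 5.24 CPM at the highest), while the points of Dkk3 and Sp5 overlap. Such a separation was seen for 6.7% of all genes measured in the class.

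The 8 TripleTg luminal-like clusters also differed from each other. For 8 of the 10 inhibitors, the same that were higher in the class as a whole, the lowest TripleTg cluster stood above the highest of the 10 DoubleTg clusters, beside 6.7% of all genes measured in the class. The reverse separation was seen for 0 inhibitors and 5.58% of genes. For Dkk3 and Sp5 the clusters of the genotypes overlapped, and the TripleTg clusters ranged over 4.29-fold and 6.2-fold, more than the 1.52-fold and 3.5-fold differences between the genotypes. The lowest and highest clusters were 58.5 and 138 CPM for Axin2, 29 and 97.5 CPM for Nkd1, 21.2 and 54.7 CPM for Notum and 20.7 and 35.1 CPM for Rnf43. Wif1 ranged from 37 CPM in the cluster led by Rnase1, Wfdc18 and Pigr to 296 CPM in the cluster led by Sftpa1, Lypd2 and Sftpc. The latter cluster, of 553 cells, was the highest for Axin2, Nkd1, Notum, Znrf3, Apcdd1, Dkk3 and Wif1. Dkk2, Rnf43 and Sp5 departed from this order and were highest, at 191 CPM (177 to 205), 35.1 CPM and 3.59 CPM, in 124 cells led by the interferon-induced genes Ifit1, Ifit3 and Rsad2, where Apcdd1 stood at 3.87 CPM. A cluster of 430 cells led by the squamous and hair genes Tchh, Cnfn and Krt73 had low Nkd1 (29 CPM) and Dkk2 (57.1 CPM) beside high Axin2 (103 CPM), Apcdd1 (20.1 CPM) and Wif1 (213 CPM). The count of 8 higher genes was the same without that cluster, an alternative added after the data had been seen.

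In every DoubleTg luminal-like cluster Notum, Apcdd1, Dkk2 and Wif1 stood at 1.15 CPM or less, while Znrf3 ranged from 2.61 to 8.08 CPM, Rnf43 from 1.19 to 5.87 CPM and Sp5 up to 15.9 CPM. Nkd1 stood at 9.41 CPM (8.09 to 10.9) in 588 cells led by 9530053A07Rik, Tgm4 and Pbsn, which held 181 of the 206 luminal Nkd1 UMIs, and at 1.44 CPM or less in the others. No such cluster was seen for Axin2, whose highest DoubleTg level was 5.24 CPM. Dkk3 stood at 6.87 CPM in 113 cells led by Gsdmc2 and Cyp2f2 and had 0 UMIs in the Tgm4-led cluster.

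Seminal vesicle-like cells (126 DoubleTg and 562 TripleTg cells) were the epithelial class in which the inhibitors were low in both genotypes. The 9 seminal vesicle markers summed to 368785.8 CPM in DoubleTg and 449198.4 CPM in TripleTg, which leaves a smaller share of each cell's UMIs to other genes. Of the 10 inhibitors 8 could be compared, 4 of them were at least 2-fold higher in TripleTg (Wif1, Dkk2, Notum and Axin2) and 1 was at least 2-fold lower (Dkk3), beside 7.41% and 20.9% of the 10884 genes measured. Wif1 had 353 UMIs (13.2 CPM) in TripleTg and 0 in DoubleTg, a log2 ratio of 4.51 against a floor of 3 UMIs over the class. Its interval from the counts seen starts at 4.2 and has no upper bound. Dkk2 had 141 UMIs (5.29 CPM) and 0, a log2 ratio of 3.19 against the floor, with an interval from 2.87 upwards. Notum stood at 1.74 and 4.84 CPM (log2 ratio 1.47, 0.5 to 2.63) and Axin2 at 3.49 and 7.95 CPM (1.19, 0.49 to 1.97). Dkk3 stood at 2.71 CPM on 14 UMIs and 0.637 CPM on 17 UMIs (-2.09, -3.2 to -0.96), and neither level exceeded the macrophage-like interval of its library (0.816 to 3.39 CPM and 0.419 to 2.49 CPM). The Dkk3 ratio was -1.18 in hMETtg-positive cells and the gene was too low to be called there or after thinning.

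As CPM, the 4 higher levels did not exceed those of TripleTg macrophage-like cells, used here as the reference for free RNA. There Wif1 stood at 19.6 CPM, Dkk2 at 11.4 CPM, Notum at 5.33 CPM and Axin2 at 11.4 CPM, with 1618 CPM of the 6 epithelial markers. The thinned share of cells with a Wif1 UMI was 4.04% (2.52 to 6.11) of 520 seminal vesicle-like cells and 4.13% (2.42 to 6.52) of 412 macrophage-like cells, with median depths of 40300 and 10042 UMIs. Without thinning the shares were 17.4% (14.4 to 20.8) of 562 and 9.7% (7.08 to 12.9) of 433 cells. CPM and thinned shares are relative to the depth of a cell, and the part of free RNA in these levels was not tested. With cells thinned to 5000 UMIs 0 of the inhibitors passed the 2-fold rule. The 88 DoubleTg cells left then held 0 UMIs of Wif1, Dkk2 and Notum, which were set to 3, so that this setting could not decide their calls. Without the cells with the top 5% of doublet scores 2 inhibitors passed.

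In seminal vesicle-like cells, Nkd1 was above the macrophage-like level without stabilised β-catenin. It stood at 8.52 CPM (6.19 to 11.4) on 44 UMIs in 17 of 126 DoubleTg cells. This lay above 1.19 CPM (0.437 to 2.59) in DoubleTg macrophage-like cells and 1.05 CPM in luminal-like cells, but not above 9.41 CPM in the Tgm4-led luminal-like cluster. After thinning 2.27% (0.276 to 7.97) of the seminal vesicle-like cells had an Nkd1 UMI, beside 0.637% (0.0772 to 2.28) of macrophage-like cells. In TripleTg Nkd1 stood at 12 CPM (10.8 to 13.4), where macrophage-like cells had 9.14 CPM (6.74 to 12.1). The log2 ratio of 0.50 (0.04 to 0.99) was under the 2-fold limit, while it was 1.01 with TMM scaling, which moved the ratios of this class by 0.51. It was 1.44 as a per-cell mean and 1.34 in hMETtg-positive cells, both past the limit. Rnf43 (2.9 and 3.19 CPM) and Znrf3 (3.87 and 3.19 CPM) had intervals of the ratio that held 0. The 2 TripleTg clusters of this class differed in hMETtg, at 7.38 CPM in 143 cells led by Sva and Svs genes and 178 CPM in 419 cells led by Crisp1 and Sprr2f. Axin2 was lower in the former (5.37 CPM, 3.83 to 7.31) than in the latter (8.95 CPM, 7.66 to 10.4), while Nkd1 (17 and 10.1 CPM) and Wif1 (18.5 and 11.2 CPM) were higher in the former. For Dkk2 (5.5 and 5.2 CPM) and Notum (5.9 and 4.42 CPM) the intervals overlapped.

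Without stabilised β-catenin, most UMIs of Wif1, Dkk2 and Notum came from 1 stromal cluster of 427 cells, which was counted as fibroblast-like although its 10 leading genes held 2 smooth muscle markers and 1 fibroblast marker. This Wif1-led cluster held 92% of the Wif1, 82.9% of the Dkk2 and 55% of the Notum UMIs of the library. In DoubleTg, 7 of the 10 inhibitors were at least 2-fold higher in fibroblast-like than in luminal-like cells (Wif1, Dkk2, Notum, Nkd1, Dkk3, Apcdd1 and Axin2), beside 26.7% of the 12931 genes measured, and 2 were at least 2-fold lower (Sp5 and Rnf43), beside 14.7%. Fibroblast-like cells held 97.6% of all Wif1 UMIs, 86.8% of all Dkk2 UMIs and 60.9% of all Notum UMIs of the library, while holding 3.73% of its UMIs. Wif1 stood at 680 CPM, with a log2 ratio over luminal-like cells of 10.44 (10.15 to 10.75), Dkk2 at 115 CPM (10.01, 9.41 to 10.69) and Notum at 39.9 CPM (8.24, 7.67 to 8.87). Dkk3 stood at 33.1 CPM (3.70, 3.49 to 3.9) and Nkd1 at 27.3 CPM (4.71, 4.44 to 4.98). Without the Wif1-led cluster, an alternative added after the data had been seen, 6 of the 10 inhibitors were still at least 2-fold higher, beside 21.6% of genes, with log2 ratios of 7.36 for Wif1, 6.59 for Dkk2 and 5.92 for Notum, and Apcdd1 could not be compared. Of the membrane ligases, Rnf43 stood at 1.15 CPM in fibroblast-like cells, close to its macrophage-like level, and Znrf3 at 8.03 CPM (0.66, 0.3 to 0.99).

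In TripleTg the order was different. Fibroblast-like cells were at least 2-fold above luminal-like cells for 3 inhibitors (Dkk3, Wif1 and Notum), beside 28.3% of the 13180 genes measured, and at least 2-fold under them for 3 others (Rnf43, Znrf3 and Axin2), beside 12%. Dkk3 stood at 89.4 CPM in fibroblast-like and 3.86 CPM in luminal-like cells, a log2 ratio of 4.53 (4.35 to 4.71). Its UMIs nevertheless came from luminal-like cells more often (49.2% in DoubleTg and 38% in TripleTg) than from fibroblast-like cells (31.1% and 31.6%), since the luminal-like class holds most of the UMIs of each library. Dkk2 stood at 122 and 103 CPM (0.24, 0.12 to 0.35) and Wif1 at 744 and 127 CPM (2.55, 2.5 to 2.6). Of all TripleTg UMIs of Dkk2, luminal-like cells held 84.8%, and of those of Wif1 they held 42.6%, basal-like cells 42.8% and fibroblast-like cells 8.99%. The part of free epithelial RNA in the TripleTg stromal levels was not tested, and the 6 epithelial markers summed to 3359 CPM in DoubleTg and 4098 CPM in TripleTg fibroblast-like cells and the 9 seminal vesicle markers to 672.9 and 9218 CPM.

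**Figure D4:**
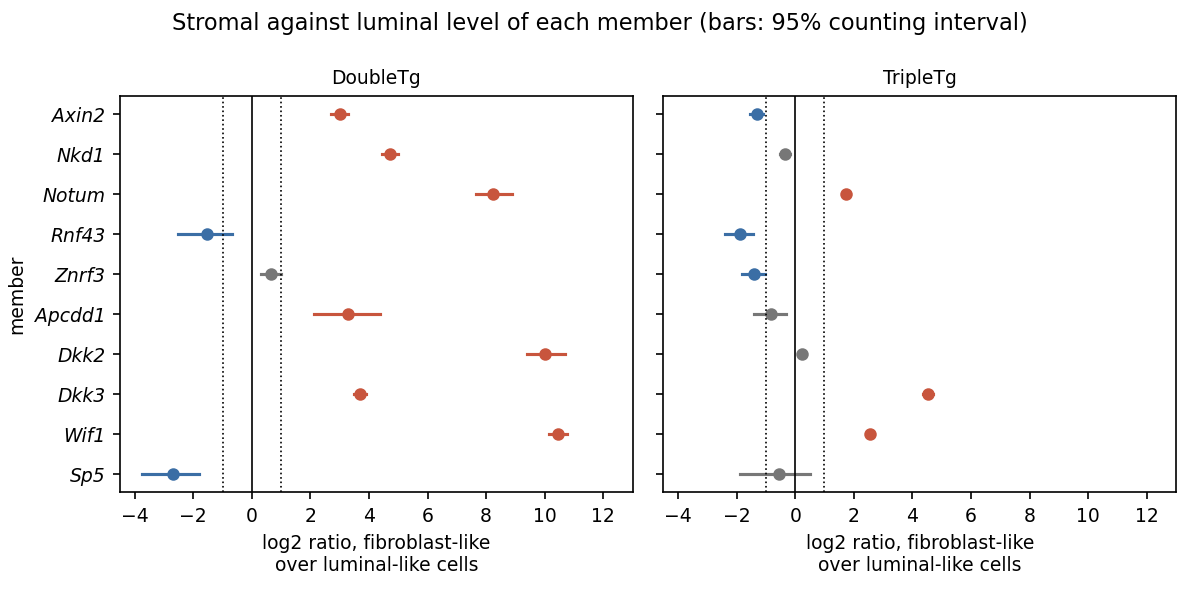
Log2 ratio of fibroblast-like over luminal-like cells within each library for the 10 genes, with 95% counting intervals, dotted lines at 2-fold, and red and blue points for genes past that limit upwards and downwards. In DoubleTg, Wif1 (10.44) and Dkk2 (10.01) lie far to the right, and in TripleTg Dkk2 lies at 0.24 and Dkk3 at 4.53.

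The stromal signal was concentrated in particular clusters. In DoubleTg, 530 cells led by Sult1e1, Lum and C3 and 427 cells led by Wif1, Mgp, Cxcl14 and Spp1, with the contractile genes Tagln and Acta2 among the leading ones, differed for most of the inhibitors. Wif1 stood at 80.2 CPM in the former and 1240.3 CPM in the latter, Dkk2 at 10.8 and 213 CPM, Notum at 7.98 and 69.8 CPM, Nkd1 at 6.47 and 46.8 CPM and Dkk3 at 11.9 and 52.9 CPM. Axin2 followed the same order at 4.53 CPM (2.8 to 6.92) and 21.4 CPM (17.5 to 25.9), so that the gene most used as a readout of the pathway was highest in the stromal cluster with the highest antagonist levels. In TripleTg, 174 cells led by Col6a1, Sfrp2, Thy1 and Wnt2 had the highest stromal levels, with Wif1 at 2551.1 CPM, Notum at 364 CPM, Dkk2 at 259 CPM, Nkd1 at 108 CPM and Axin2 at 62.5 CPM. The other 2 TripleTg stromal clusters, of 304 cells led by Apod and Lum and 156 cells led by Col3a1 and Pi16, had Wif1 at 218 and 62.9 CPM and Notum at 34.9 and 10.5 CPM. Dkk3 again departed from the others, since its highest TripleTg level, 148 CPM (132 to 167), lay in the Col3a1-led cluster in which Wif1, Notum and Nkd1 were lowest. The fibroblast-like classes of the 2 genotypes were not compared with each other, because of the markers that lead the DoubleTg Wif1-led cluster.

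Smooth muscle-like and endothelial-like cells also held inhibitors. Smooth muscle-like cells had Nkd1 at 44.3 CPM (30.9 to 61.6) in DoubleTg and 40.8 CPM (30.2 to 53.9) in TripleTg, a log2 ratio of -0.12 (-0.78 to 0.55) on 35 and 49 UMIs. Endothelial-like cells had Dkk2 at 56.2 CPM (46.8 to 67) and 112 CPM (99.5 to 126), a log2 ratio of 0.99 (0.69 to 1.31), while Wif1 had 1 UMI in DoubleTg and 139 UMIs (53.7 CPM) in TripleTg endothelial-like cells. Axin2 stood at 1.35 and 17.4 CPM, Nkd1 at 1.8 and 14.7 CPM, Notum at 0.45 and 9.27 CPM and Znrf3 at 5.4 and 13.5 CPM in these cells. Markers of other cells differed as well, with the 9 seminal vesicle markers at 228.1 and 6154 CPM, the 7 macrophage markers at 11.25 and 123.3 CPM and the 6 epithelial markers at 2901 and 2427 CPM, and the part of free RNA in the inhibitor levels was not tested. Dkk3 in smooth muscle-like cells stood at 5.07 CPM on 4 UMIs in DoubleTg and 80.7 CPM on 97 UMIs in TripleTg. In the same cells Dkk2 had 6 and 120 UMIs (7.6 and 99.8 CPM) and Wif1 1 and 107 UMIs (1.27 and 89 CPM). The 7 fibroblast markers moved with these, from 811.7 to 4267 CPM in these classes of 66 and 96 cells, and their part in them was not tested.

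In macrophage-like cells, 6 of the 7 inhibitors that could be compared had levels at least 2-fold higher in TripleTg than in DoubleTg, with log2 ratios of 3.26 (2.06 to 4.77) for Dkk2, 3.04 for Axin2, 2.94 for Nkd1, 2.75 for Notum, 2.32 for Rnf43 and 1.87 for Wif1, at levels of 4.95 to 19.6 CPM. Of all 10696 genes measured in these cells, 9.91% were at least 2-fold higher and 9.67% at least 2-fold lower. The 6 epithelial markers summed to 3461 CPM in DoubleTg and 1618 CPM in TripleTg macrophage-like cells, and the 9 seminal vesicle markers to 194.4 and 2815 CPM. In the 145 TripleTg neutrophil-like cells, with a median of 2691 UMIs and with the 6 epithelial markers each seen, on average, in a share of 0.738 of the cells, levels were higher, at 63 CPM for Axin2, 72.8 CPM for Dkk2 and 129 CPM for Wif1. The part of free epithelial RNA in these values was not tested. In DoubleTg, where luminal levels were low, T or NK-like cells had the highest Axin2 of all classes of at least 100 cells, 17.8 CPM (13.8 to 22.7), with an interval that overlapped that of fibroblast-like cells (13.2 CPM, 11 to 15.8). They also had Znrf3 at 12.5 CPM (9.2 to 16.6) and Dkk3 at 10.4 CPM (7.38 to 14.2), beside 4.76 and 1.79 CPM in macrophage-like cells. No TripleTg cluster was named T or NK-like, so this has no counterpart.

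The named classes of at least 100 cells were ordered by level, which leaves out the 96 TripleTg smooth muscle-like cells among others. It also leaves out the 1079 unnamed TripleTg cells, in which Axin2 stood at 113 CPM (106 to 121). In TripleTg, luminal-like and basal-like cells shared the top place within their intervals for Axin2 (85.3 and 81.5 CPM) and, with neutrophil-like cells as the third, for Rnf43 (27.3, 29.6 and 25.7 CPM). Basal-like and fibroblast-like cells shared it for Wif1 (754 and 744 CPM) and Notum (118 and 108 CPM). Fibroblast-like, endothelial-like and luminal-like cells were level for neighbouring ranks of Dkk2 (122, 112 and 103 CPM), with overlapping intervals between neighbours. Fibroblast-like cells stood alone at the top for Dkk3 among these classes (89.4 CPM, next 9.18 CPM), while the smooth muscle-like cells left out had 80.7 CPM. Seminal vesicle-like cells were last of the 8 classes for 8 of the inhibitors, the exceptions being Nkd1 and Sp5, for which they were next to last.

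The genes were next counted per cell, after thinning each cell to 5000 UMIs. In DoubleTg, 9.95% (9.12 to 10.8) of luminal-like cells had a UMI of at least 1 of the 10 inhibitors and 0.0209% had UMIs of at least 3, while in TripleTg the shares were 80.9% (79.7 to 82) and 23.4% (22.1 to 24.6). In basal-like cells the share with at least 1 was 16% in DoubleTg and 75.7% in TripleTg, and in seminal vesicle-like cells it was 7.95% (3.26 to 15.7) and 17.9% (14.7 to 21.5). Macrophage-like cells had 5.73% (3.43 to 8.91) and 19.4% (15.7 to 23.6), and the seminal vesicle-like intervals overlapped theirs in both libraries. All immune-like cells had 11.5% (9.27 to 14) and 25.5% (21.8 to 29.5), with T or NK-like cells in DoubleTg only and, in TripleTg, 52 neutrophil-like cells of which 34.6% had a Wif1 UMI. Fibroblast-like cells had a share of 57% (53 to 60.9) in DoubleTg, where 338 of the 626 cells were of the Wif1-led cluster. In TripleTg the share was 73.9% (69 to 78.4), and because of that cluster the genotypes are not compared.

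**Figure D5:**
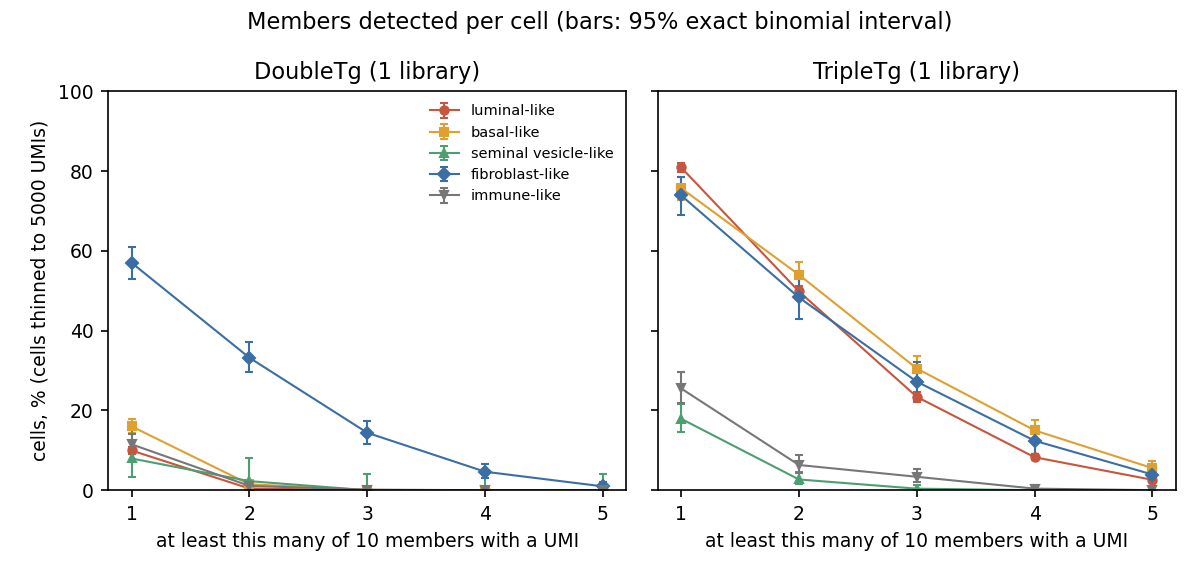
Share of cells (%, with 95% exact binomial intervals) with UMIs of at least a given number of the 10 genes, after thinning to 5000 UMIs, by class and library. The TripleTg luminal-like curve starts at 80.9% and is still at 23.4% for at least 3 genes, while the DoubleTg luminal-like curve starts at 9.95% and falls to 0.0209%.

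Within TripleTg luminal-like cells, thinned in the same way, some pairs of inhibitors were seen together more often than others. Among cells with an Apcdd1 UMI, 46.4% (39.7 to 53.2) had an Axin2 UMI, against 28.8% (27.5 to 30.1) of cells without one, and 50% (43.2 to 56.8) had a Wif1 UMI, against 31.2% (29.9 to 32.6). The shares for Axin2 and Nkd1 were closer, with an Nkd1 UMI in 26% (23.7 to 28.4) of cells with and 23.3% (21.9 to 24.8) of cells without an Axin2 UMI, and the intervals overlapped. For Notum and Dkk2 there was no excess, with 32.1% (28.6 to 35.8) and 33.2% (31.8 to 34.7). In TripleTg basal-like cells the shares lay further apart. An Nkd1 UMI was seen in 31% (25.3 to 37.2) of cells with and 12.6% (10.2 to 15.4) of cells without an Axin2 UMI, and a Wif1 UMI in 89.2% (85.4 to 92.3) of cells with and 47.6% (43.4 to 51.7) of cells without a Notum UMI. The clusters of both classes differ in all of these genes, and pairs within a cluster were not examined. These are descriptions across cells of 1 library at low counts.

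Cells with and without an hMETtg UMI after thinning were compared next. Among TripleTg luminal-like cells, Axin2 stood at 87.4 CPM in the 499 positive ones and at 84.2 CPM in the 4199 negative ones, a log2 ratio of 0.05 (-0.16 to 0.26). Nkd1 (-0.46, -0.74 to -0.19), Wif1 (-0.37, -0.56 to -0.18) and Dkk2 (-0.27, -0.47 to -0.07) were somewhat lower in positive cells. In TripleTg basal-like cells Rnf43 was higher in 123 positive cells, at 52 against 24.3 CPM (1.10, 0.47 to 1.69). Nkd1 (0.42, 0.01 to 0.81) and Dkk2 (0.96, 0.02 to 1.81, on 15 and 50 UMIs) were higher there as well, in the direction opposite to that in luminal-like cells, and the difference between the classes was not tested. In DoubleTg luminal-like cells Axin2 stood at 1.93 CPM in the 3312 positive ones and at 2.3 CPM in the 1481 negative ones (-0.25, -1.14 to 0.69), so that a difference was not detectable at this depth. Since 5000 UMIs per cell miss hMETtg in many cells that express it, negative cells are not cells without the transgene. After thinning an hMETtg UMI was seen in 10.6% of TripleTg luminal-like and 13.4% of basal-like cells, beside 1.21% of macrophage-like and 15.4% of neutrophil-like cells. In DoubleTg the shares were 69.1% of luminal-like, 7.29% of basal-like and 9.87% of macrophage-like cells. The part of free RNA in the positive cells was not tested.

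The other genes of the pathway were counted in luminal-like cells, where 14.5% of all genes were at least 2-fold higher. Of 11 other target genes measured, 6 were at least 2-fold higher and 0 lower in TripleTg: Nkd2 (7.53), a second Dishevelled-binding inhibitor, the transcription factor Lef1 (6.89), the R-spondin receptor Lgr5 (6.25), Bmp4 (3.13), Tcf7 (3.07) and Tnfrsf19 (2.45), all as log2 ratios. Ccnd1 stood at 31.7 and 47.3 CPM and Myc at 93.4 and 55.6 CPM, both within 2-fold. Of 7 other secreted or membrane inhibitors measured, 4 were higher: Dkk1, on 188 UMIs against 1, Sfrp2 (5.94), Igfbp4 (4.47) and Bambi (2.97). Tmem88 was lower (-1.37). Of 14 genes of the destruction complex and Dishevelled, Csnk1e (1.66) and Tnks (1.24) were higher and Btrc (-1.24) lower, and of 12 receptors and R-spondin genes, Lgr5 and Fzd10 (5.60) were higher and Fzd4 (-2.16) lower. The median log2 ratio of these 12 genes was -0.08, beside -0.02 over all genes measured.

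In basal-like cells the other targets went both ways, beside 18.8% of all genes that were higher and 15.4% that were lower. Of 11 measured, 6 were at least 2-fold higher, with log2 ratios of 4.25 for Lef1, 3.51 for Lgr5, 2.36 for Tnfrsf19, 1.53 for Mmp7, 1.42 for Nkd2 and 1.20 for Bmp4. The other 3 past the limit were lower, Ccnd1 (-1.85), Sox9 (-2.04) and Myc (-2.26), which many other signals also control. Of 14 receptors and R-spondin genes, 4 were higher and 4 lower, and the widest difference was that of Lgr6, on 647 UMIs (25.8 CPM) in TripleTg against 1 UMI in DoubleTg. Of 9 other secreted or membrane inhibitors, 5 were higher, among them Sfrp2, on 42 UMIs against 3, and Sostdc1, on 40 UMIs against 1, and 2 were lower, Tmem88 (-1.45) and Trabd2b (-2.78). In seminal vesicle-like cells 1 of 9 targets was higher, Lgr5 (1.13, -0.54 to 3.48), and 3 were lower, Tnfrsf19 (-1.17), Lef1 (-1.48, -2.91 to 0.09) and Ccnd1 (-1.72), beside 7.41% and 20.9% of all genes and a median of -0.47 over them.

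The same lists were counted in DoubleTg fibroblast-like against luminal-like cells, where 26.7% of all genes were higher and 14.7% lower. The Wif1-led cluster, with smooth muscle markers among its leading genes, was included, and the lists were not counted without it. At least 2-fold higher were 8 of 12 other targets (2 lower), 9 of 15 receptors and R-spondin genes (2 lower) and 2 of 14 genes of the destruction complex and Dishevelled (0 lower), the last list with a median log2 ratio of 0.01 beside 0.09 over all genes. Of 12 other secreted or membrane inhibitors measured, 10 were at least 2-fold higher than in luminal-like cells, among them Sfrp2 (10.97), Sfrp4, on 144 UMIs against 1, and Sostdc1, on 95 against 2, and 0 were lower. R-spondins, which act against Rnf43 and Znrf3, were stromal as well, with Rspo3 at 145 CPM in fibroblast-like and 0.483 CPM in luminal-like cells and Rspo1 on 29 UMIs against 0. In TripleTg, Rspo3 stood at 80 CPM in fibroblast-like and 0.135 CPM in luminal-like cells, while Rnf43 stood at 7.32 and 27.3 CPM.

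The genes whose profile over 15 classes was most like each inhibitor were found among 12575 genes, by the correlation of log2(CPM + 1), where the points of a library share depth and free RNA. For Notum the closest was the ligand Wnt5a (r = 0.973), which was also among the closest for Nkd1 (0.920) and Wif1 (0.925). For Axin2 they were Mark1 (0.920), Lgr5 (0.918) and the ligand Wnt6 (0.908). The 3 closest genes of Wif1 and of Nkd1 were the same, Wnt5a, Lin7a and Slco5a1. Dkk2 was most like Acyp2 (0.944) and Vtn (0.931), Dkk3 most like Whrn (0.924) and Sox5 (0.916), and Apcdd1 most like Kcnmb2 (0.962). Rnf43 was most like Gm10260 (0.965) and Net1 (0.937), Znrf3 had the ribosomal protein genes Rpl7 (0.958) and Rps20 (0.941) among its 3 closest with Zfp706, and Sp5 was most like Fh1 (0.923) and Ick (0.893). Among the inhibitors themselves, Wif1 and Notum had the most similar profiles (0.93), followed by Wif1 and Nkd1 (0.89), while Sp5 had r between -0.05 and 0.35 with the other 9. Rnf43 and Znrf3 were like each other (0.84) and like Axin2 (0.88 each), and less like Dkk2 (0.31 and 0.48).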

How the data were processed

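Prostate tumour tissue of 1 DoubleTg and 1 TripleTg sample was dissociated with collagenase and TrypLE and sequenced as 10x 3′ v3 libraries. The authors deposited raw UMI counts per gene and cell, made with Cell Ranger (6.0.2 and mm10 in the submitters' processing notes, 6.1.1 in the header of the DoubleTg matrix). Cells with over 200 and under 7000 genes and under 15% mitochondrial counts were kept. In DoubleTg 71 cells had too few genes, 421 too many and 1042 too many mitochondrial counts (87.79% kept), while all 9492 TripleTg cells passed, which is as many as the study kept after the same limits, so that this matrix holds cells filtered before deposit. For DoubleTg the study states fewer cells after these limits than the 10598 kept here, and fewer before them than the 12072 barcodes deposited, which was not resolved. The kept cells had a median of 16761 and 20097 UMIs. Deposited barcodes shared by the libraries numbered 30, of which 29 were kept.

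Each library was clustered on its own in scanpy 1.11.5 (Python 3.11.15; counts per 10000 and logarithm, 2000 variable genes without the 10 inhibitors and the listed Wnt genes, 20 principal components, 15 neighbours, leidenalg 0.10.2 at resolution 1). Clusters were named from lists of marker genes, with thresholds set after the clusters had been seen, and clusters below them stayed unnamed. The authors' cell annotation was not used here, so the classes may differ from theirs. Scrublet called 273 DoubleTg cells (2.576%) and 0 TripleTg cells doublets, so its calls were not used and no doublets were removed.

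UMIs were summed per library and class. Genes at 1 CPM or more in either group and with 20 UMIs or more over both were compared, a log2 ratio of at least 1 either way was called higher or lower, and sums under 3 UMIs were set to 3 for the call. Intervals are 95% exact Poisson, binomial or conditional and cover counting error only. All 10 inhibitors and the genes of 4 pathway lists were named by rule, and others were named as leading genes of a cluster or as closest profiles (classes of at least 100 cells, genes of at least 5 CPM in a class). Axin1 and, in luminal-like cells, Ccnd1 and Myc were named after their values were seen. The inhibitors and lists were chosen with earlier results of these data known. Alternatives used TMM factors (edgeR 4.0.16, R 4.3.3), thinning to 5000 UMIs, resolutions 0.5 and 2, clustering with the Wnt genes, per-cell means, no filter on low values, hMETtg-positive cells and, for profiles, a pseudocount of 10 in place of 1. The planned genotype comparison of fibroblast-like cells was not made. The procedure was tested on simulated data.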

Additional observations from a re-analysis of the deposited data

Results flagged for a closer look

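For 2 inhibitors the genotypes differed in opposite directions in different epithelial classes. Dkk3 had a log2 ratio of TripleTg over DoubleTg of 1.30 (0.95 to 1.66) in basal-like cells and -2.09 (-3.2 to -0.96) in seminal vesicle-like cells, the latter on 17 and 14 UMIs and not called with cells thinned to 5000 UMIs (-2.56) or in hMETtg-positive cells (-1.18), where it was too low. Sp5 had a log2 ratio of -1.81 (-2 to -1.62) in luminal-like cells and 1.27 (0.58 to 1.99) in basal-like cells, the latter on 59 and 26 UMIs, 51 of the 59 from 1 TripleTg cluster. The basal Sp5 ratio was 0.41 in hMETtg-positive cells, 0.94 with the Wnt genes used for clustering, and too low to be called after thinning (1.41). With 1 library per genotype, the difference between classes was not tested for either gene.

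Cells that received no class name also carried the inhibitors, and they enter no comparison of the report. The 1079 unnamed TripleTg cells, with a median of 2498 UMIs, had Axin2 at 113 CPM, Nkd1 at 66.8 CPM, Notum at 32.6 CPM, Rnf43 at 32.4 CPM and Znrf3 at 40.4 CPM. Of the other members, Apcdd1 stood at 19.7 CPM, Dkk2 at 98.4 CPM and Wif1 at 96.7 CPM in these cells. The 1188 unnamed DoubleTg cells, with a median of 1698 UMIs, had Axin2 at 6.11 CPM, Dkk2 at 0.226 CPM, Wif1 at 2.72 CPM and Notum at 0 UMIs. The highest levels lay in 407 shallow TripleTg cells led by Gm26917, Lars2 and Arc, where Axin2 stood at 290 CPM, Nkd1 at 131 CPM, Dkk2 at 141 CPM and Apcdd1 at 62.7 CPM.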

How the results depend on the processing

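No paired analysis was possible because each genotype has 1 library and no result comes from a test. The count of inhibitors at least 2-fold higher was 8 in luminal-like cells under all 10 alternatives tried, 8 to 10 in basal-like cells under 9, 6 or 7 for DoubleTg and 3 for TripleTg fibroblast-like over luminal-like cells. For seminal vesicle-like cells it was 4, and it became 0 with cells thinned to 5000 UMIs and 2 without the top 5% of Scrublet scores, while other settings gave 3 to 5. Thinning also turned the seminal vesicle ratios of Notum (1.47) and Dkk2 (3.19) to -0.45 each. The DoubleTg cells left held 0 UMIs of either gene, which were set to 3, and neither gene could be compared. The Wif1 ratio (4.51) became 0.85, likewise against 0 UMIs set to 3. Of 460 ratios recomputed, 24 changed their side of the 2-fold limit, among them basal Znrf3 (0.98 at resolution 2), seminal vesicle Axin2 (0.55 thinned) and Nkd1 (1.44 as a per-cell mean), and TripleTg stromal Apcdd1 (-1.18 with TMM) and Sp5 (-1.40 with the Wnt genes in clustering). TMM moved all seminal vesicle ratios by 0.51, DoubleTg stromal ratios by -0.29 and TripleTg ones by -0.35. With a pseudocount of 10, 4 of the 10 inhibitors (Axin2, Rnf43, Dkk3 and Sp5) kept at most 1 of their 3 closest genes, and the others kept 2. The removal of doublets by Scrublet's own call and the genotype comparison of fibroblast-like cells, with its alternatives, were not run. The removal of the top 5% of scores, of the squamous-led cluster and of the DoubleTg Wif1-led stromal cluster (6 higher in place of 7) were chosen after seeing the data. With 1 library a genotype the spread between mice is unknown, and depth limits the small classes, in which 3 UMIs stand for 3.8 CPM (DoubleTg smooth muscle-like), 1.35 CPM (DoubleTg endothelial-like) and 0.581 CPM (DoubleTg seminal vesicle-like).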
